A study of Mus musculus with 6 samples.

Results

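Erythroid genes were followed on 6 one-colour Illumina bead arrays of mouse haematopoietic stem cells, 3 arrays of wt cells and 3 labelled Matn4-/-. The 9 genes were Gata1, Klf1, Epor, Car1 and Car2, which act early in red cell formation, and Hba-a1, Hbb-b1, Alas2 and Slc4a1, which act late. They are 9 of 21946 named genes on the array and are read by the 21 probes, of 46237 in all, whose symbol in the platform's annotation is one of these names. Hbb-b1 had 11 probes, Gata1 and Car2 had 2 each, and the other genes had 1 each. The probes of Hbb-b1 share a symbol, may share a target and are not counted as separate genes.

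The wt donor cells carried both Ptprc alleles (CD45.1.2) and the Matn4-/- donor cells CD45.2 alone. Bone marrow of both was mixed in equal parts and given to CD45.1 recipients irradiated with 2 doses of 500 rad, so every array holds cells from marrow that had been transplanted. After 4 weeks, cells of each genotype were sorted by flow cytometry as LSKCD150+CD48- stem cells, where LSK stands for cells without lineage markers that carry Sca-1 and Kit, and RNA was amplified from 2.5 ng. The labels give female C57/BL6 mice of 12 weeks and do not say whether arrays with the same replicate number came from the same host. P-values therefore measure the spread between these arrays, which may be technical, and the number of arrays limits their precision.

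Red cells arise from stem cells through progenitors in which the transcription factors GATA1 and KLF1 switch on a shared set of genes. Early progenitors respond to erythropoietin through the receptor EPOR and begin to make carbonic anhydrases. Later precursors fill with haemoglobin, whose haem is made by a pathway that begins with ALAS2 and whose chains come from the alpha and beta globin genes, and they place the anion exchanger SLC4A1 (band 3) in their membrane. Stem cells come before all of these steps and can carry low levels of some early transcripts.

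Intensities are on a linear scale with the background still in them, so a fold understates the change of a dim gene. Female cells have no Y chromosome, and 13 probes of Y-linked genes read 93.1 to 142, and the brightest of them on each array, between 124 and 142, served as the mark that a member had to exceed. On that scale Kit, the receptor used in the sort, read 462 to 653 over the 6 arrays and Slamf1, which encodes CD150, 141 to 178. Cd48 stayed at 112 to 120.4 and below the mark on every array, and Ly6a, which encodes Sca-1, was not analysed here. By the brightest of its 3 probes, Matn4 itself read 310.3, 158 and 378 on the wt arrays and 168, 318 and 331 on those labelled Matn4-/-. These ranges overlapped. The sources used here do not place its probes relative to the deletion, so this does not check the labels. Matn4-/- replicate 3 stood apart, with a mean Spearman correlation of 0.745 with the other arrays over all probes against 0.852 to 0.866 for the rest. Over the 23118 brighter probes that were tested, the value was 0.780 for that array and 0.796 for Matn4-/- replicate 1, against 0.830 to 0.837 for the other 4.

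Of the 9 genes, 4 exceeded the mark on all 6 arrays by their brightest probe, namely Car1, Car2, Hba-a1 and Hbb-b1. Klf1 did so on 2 of 3 wt and all 3 Matn4-/- arrays and Gata1 on 1 of 3 and 2 of 3. Alas2 and Slc4a1 exceeded it on 1 array of each genotype, and Epor on none. Counted by probe, 14 of the 21 exceeded it on every array. Levels of different probes are not comparable, so no order of the genes follows from these values.

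The late and early genes among these 9 had different patterns over the arrays, which is described here without a test. The 4 late genes were highest on replicate 3 of both genotypes, with globins up to 2.90-fold apart between arrays. None of the 4 early genes above the mark on any array had that pattern. Nor did any of the 9 haem synthesis, 12 membrane and 7 other late genes tested from wider lists. Alas2 and Slc4a1 exceeded the mark only on replicate 3 of each genotype. Between genotypes none of the 8 genes tested passed, where 0.0476% of all 23118 tested probes did. Car1 alone kept its groups apart, where 10.4% of tested probes did in either direction and 4.04% with Matn4-/- higher. Car1 read 167 ± 30.8 (SD, n = 3) in wt cells and 228 ± 26.5 (SD, n = 3) in those labelled Matn4-/-.

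**Figure D1:**
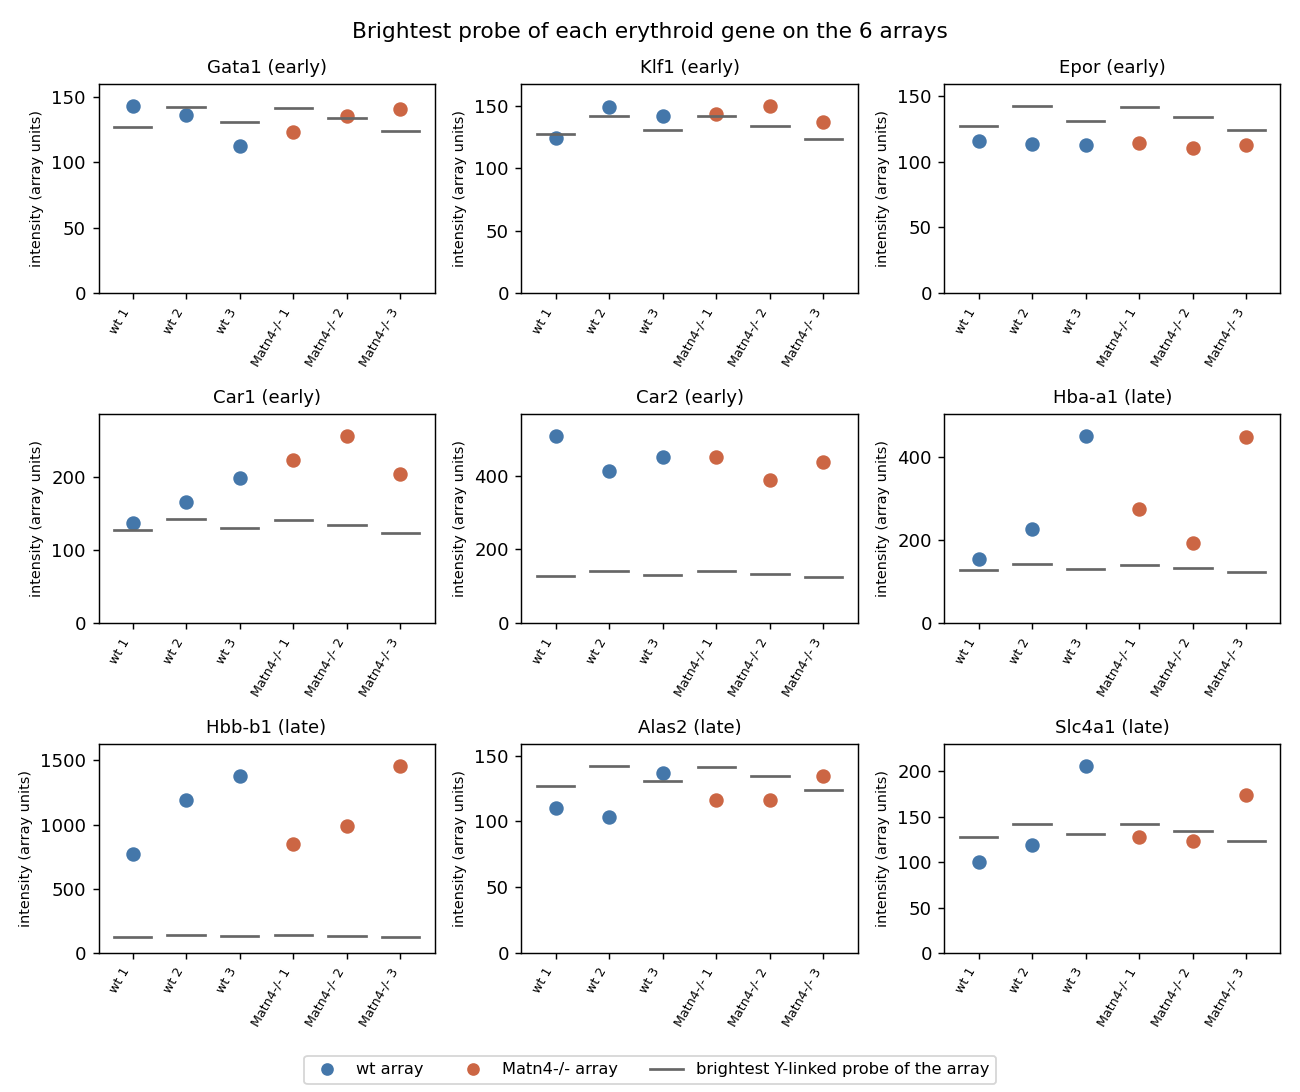
Intensity of the brightest probe of each of the 9 genes (vertical axis, array units, from 0) on the 3 wt arrays (blue) and the 3 Matn4-/- arrays (orange), with the brightest Y-linked probe of each array as a grey bar. Hba-a1, Hbb-b1, Alas2 and Slc4a1 are highest on replicate 3 of both genotypes, Car1 is higher on all 3 Matn4-/- arrays, and Epor lies under the bars throughout.

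For the 3 late genes whose windows the RefSeq table (build GRCm38.p6) holds under a matching gene, and for Klf1 as an early gene, the 250 bases before the annotated start are shown, 5′ to 3′. They are printed because the late genes were highest on the same arrays and because GATA1 and KLF1 are known to act through short motifs of the kinds marked. A part of these motifs in the array values was not tested. Capitals mark AGATAA or TGATAA and CACCC on either strand, and neighbouring matches of CACCC may overlap.
Hba-a1, chr11:32283422-32283671, plus strand: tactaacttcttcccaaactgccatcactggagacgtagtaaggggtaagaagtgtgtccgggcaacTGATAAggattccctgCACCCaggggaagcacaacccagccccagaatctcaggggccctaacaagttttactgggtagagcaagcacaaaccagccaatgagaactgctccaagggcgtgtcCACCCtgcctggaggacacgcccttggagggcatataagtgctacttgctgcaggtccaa
Hbb-bt, chr7:103813924-103814173, minus strand: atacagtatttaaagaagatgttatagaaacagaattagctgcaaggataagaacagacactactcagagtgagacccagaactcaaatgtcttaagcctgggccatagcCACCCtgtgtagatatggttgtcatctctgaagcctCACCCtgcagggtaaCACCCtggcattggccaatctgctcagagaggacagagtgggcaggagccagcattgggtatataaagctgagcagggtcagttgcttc
Alas2, chrX:150547167-150547416, plus strand: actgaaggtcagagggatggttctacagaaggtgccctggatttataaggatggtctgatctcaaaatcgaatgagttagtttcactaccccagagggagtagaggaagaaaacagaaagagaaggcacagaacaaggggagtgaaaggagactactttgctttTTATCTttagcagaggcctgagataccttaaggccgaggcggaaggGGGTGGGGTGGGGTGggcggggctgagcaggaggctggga
Klf1, chr8:84901732-84901981, plus strand: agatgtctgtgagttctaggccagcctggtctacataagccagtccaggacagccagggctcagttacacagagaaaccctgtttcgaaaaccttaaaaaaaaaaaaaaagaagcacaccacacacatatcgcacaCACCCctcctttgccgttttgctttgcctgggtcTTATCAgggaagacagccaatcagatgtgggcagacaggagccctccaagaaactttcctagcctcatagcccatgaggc

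The window of Hbb-bt stands for Hbb-b1 here, because the RefSeq transcript that the platform annotation gives for 4 of the 11 Hbb-b1 probes is now listed under Hbb-bt, an adult beta globin gene of C57BL/6J mice beside Hbb-bs. The other 7, the brightest among them, carry clone accessions that were matched to neither gene. Hba-a1 held 1 match of AGATAA or TGATAA and 2 of CACCC, Hbb-bt none and 3, Alas2 1 and 3, and Klf1 1 of each. Over all 32851 windows of the table cut to the same length, 16.6% held AGATAA or TGATAA and 52.0% held CACCC. The longer motif CCACACCC, held by 3.20% of windows, was in none of the 4 printed but once in that of Hbb-bs, which also held 1 match of AGATAA or TGATAA and 1 of CACCC, the latter within the longer motif. Of other windows, Epor held 1 match of AGATAA or TGATAA and 2 of CACCC, and Gata1 held none and 2. The windows of Hba-a1 and Hba-a2 share an unbroken run of 247 bases, whereas those of Hbb-bs and Hbb-bt share at most 14 in a row. The transcripts of the alpha globin genes are known to be near copies of each other, and so are those of the adult beta globin genes, so the signal of a globin probe may include more than one gene.

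Among the early genes, the transcription factor Gata1 read 143, 136 and 112 on wt replicates 1 to 3 and 124, 135 and 141 on Matn4-/- replicates 1 to 3 (probe ILMN_2935686). The groups overlapped, and the log2 difference, Matn4-/- minus wt as everywhere below, was 0.03 ± 0.10 (SE of the limma fit, adjusted p = 0.999). The other Gata1 probe read 109 to 127 and stayed under the mark on every array.

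Klf1, the erythroid factor that binds CACCC elements of globin genes, read 124, 149 and 142 in wt and 143, 149.8 and 137 in Matn4-/- cells. These ranges overlapped as well, with a log2 difference of 0.05 ± 0.09 (adjusted p = 0.999). Epor, the erythropoietin receptor gene, read 116, 114 and 113 in wt and 114, 110.4 and 113 in Matn4-/- cells. All 6 values lay under the brightest Y-linked probe, so these arrays give no usable level of Epor and no fold.

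Car1, on chromosome 3 like Car2, encodes a carbonic anhydrase of red cell precursors, an enzyme that interconverts CO2 and bicarbonate. It read 137, 166 and 199 on the wt arrays and 223, 257 and 204 on the Matn4-/- arrays. Every Matn4-/- array lay above every wt array, with Matn4-/- replicate 3 and wt replicate 3 next to each other. Such a separation with Matn4-/- higher was held by 4.04% of the 23118 probes tested. The log2 difference was 0.46 (95% interval 0.14 to 0.77) with an unadjusted limma p of 0.00955. Adjusted over the 23118 probes tested, p was 0.702, so Car1 did not pass. With one array left out at a time the difference stayed above 0, between 0.32 and 0.59.

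Car2, the gene of a second carbonic anhydrase that early progenitors make, did not share that separation. Its brighter probe (ILMN_2606746) read 507, 413 and 450.3 in wt and 452, 387 and 437 in Matn4-/- cells, and the other read 135 to 161 and 135 to 142. Both differences were negative, -0.10 ± 0.10 and -0.10 ± 0.08 on the log2 scale, with overlapping groups and adjusted p-values of 0.999 and 0.998. The interval of the brighter probe, -0.32 to 0.12, lies below the Car1 estimate, but the difference between both genes was not tested.

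Among the late genes, Hba-a1, an alpha globin gene, varied most. It read 156, 227 and 452 on wt replicates 1 to 3 and 275, 194 and 449 on Matn4-/- replicates 1 to 3. Both genotypes thus had their highest value on replicate 3, and those 2 values were close together. The SD within genotypes was 0.70 on the log2 scale, above that of 99.8% of the 23118 probes tested, whose median was 0.11. Against that spread the genotype difference of 0.20 ± 0.39 was small (adjusted p = 0.999, 95% interval -0.69 to 1.08). It became -0.15 without wt replicate 1 and -0.12 without Matn4-/- replicate 3.

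Hbb-b1, the beta globin gene name, gave the same picture on its own probes. The brightest (ILMN_1244316) read 774, 1195 and 1381 in wt and 849.8, 988 and 1456 in Matn4-/- cells, a difference of -0.02 ± 0.24 (adjusted p = 0.999) with an interval of -0.56 to 0.52. The second brightest (ILMN_1236718) read 311, 513 and 815 in wt and 456, 462 and 786 in Matn4-/- cells. On both probes replicate 3 of each genotype stood above all 4 other arrays.

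Of the 11 Hbb-b1 probes, 10 were highest on replicate 3 in both genotypes, against 7.73% of the 23118 probes tested. In wt cells all 11 were highest there. These probes share a symbol, may share a target and are not separate observations, and the pattern was noticed in these values. The exception in Matn4-/- cells, ILMN_1235372, read 299, 304 and 346 in wt and 285, 304 and 299.7 in Matn4-/- cells. The probes differed in how far the arrays lay apart, from 1.17-fold to 2.62-fold between the highest and lowest. The dimmest, ILMN_1228877, exceeded the Y-linked mark on 1 array of each genotype and had the narrowest range, 120.1 to 139.9. Genotype differences ran from -0.09 to 0.18 with a median of 0.06, 6 above and 5 below 0, and none passed (smallest adjusted p = 0.998).

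**Figure D2:**
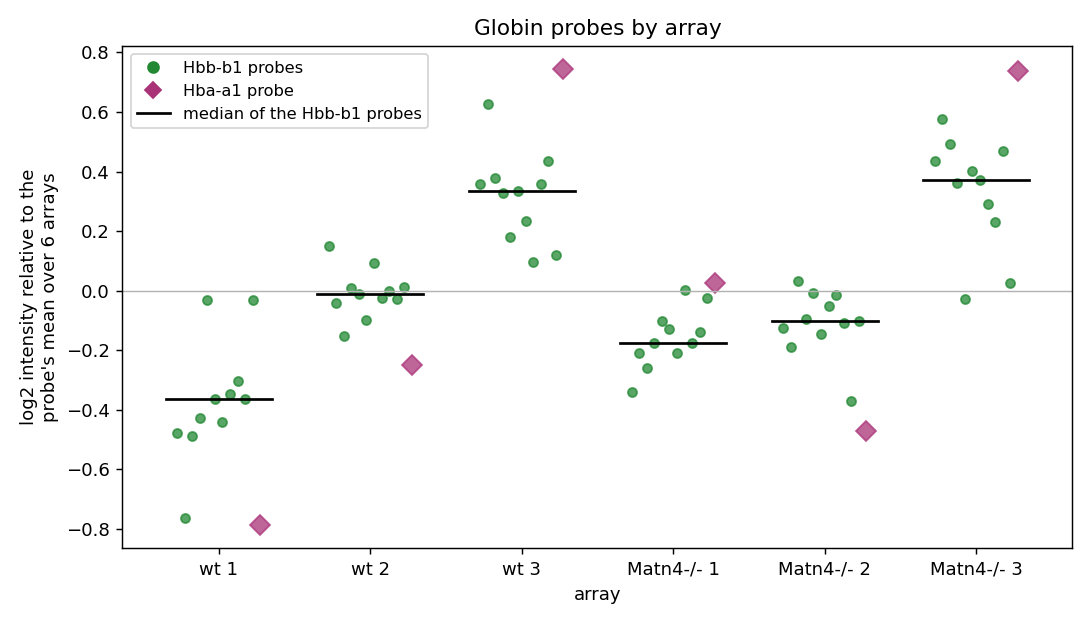
Log2 intensity of each Hbb-b1 probe (green circles, 11 per array) and of the Hba-a1 probe (purple diamonds), relative to the probe's own mean over the 6 arrays (vertical axis), by array (horizontal axis), with the median of the Hbb-b1 probes as a black line. The medians are highest on replicate 3 of both genotypes, and Hba-a1 is highest on the same arrays.

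Alas2 encodes the erythroid enzyme of the first step of haem synthesis. It read 111, 103 and 137 in wt and 116, 117 and 134 in Matn4-/- cells, above the Y-linked mark only on replicate 3 of each genotype. Slc4a1, the band 3 gene, read 100.1, 119 and 206 in wt and 128, 124 and 174 in Matn4-/- cells, again above the mark only on those 2 arrays. The groups of both genes overlapped, and neither passed in the limma fit (both adjusted p = 0.999). Since all other arrays were at the level of Y-linked probes, the size of a difference between genotypes or arrays is not interpreted for either gene. Differences and averages given later that include Alas2 or Slc4a1 rest at least partly on values at that level.

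Set side by side, 4 of 4 late genes and 0 of the 4 early genes other than Epor were highest on replicate 3 of both genotypes by their brightest probe, a pattern noticed in these values and held by 7.73% of tested probes. Of the genes above the mark on all 6 arrays, Hba-a1 and Hbb-b1 had it and Car1 and Car2 did not. The count for the late genes was also 4 after quantile, cyclic loess and median scaling. Relative to each probe's mean over the 6 arrays, the late genes averaged -0.46, -0.13 and 0.47 (log2) on wt replicates 1 to 3 and -0.11, -0.19 and 0.42 on Matn4-/- replicates 1 to 3. The early genes without Epor averaged -0.09, -0.04 and -0.04 on wt and 0.05, 0.09 and 0.03 on Matn4-/- arrays. Without Car1 as well, these values ran from -0.06 to 0.05 in wt and from -0.02 to 0.02 in Matn4-/- cells and overlapped. The late minus early value, again without Epor, was -0.37, -0.08 and 0.51 in wt and -0.16, -0.28 and 0.39 in Matn4-/- cells. Of the late genes, Alas2 and Slc4a1 were above the mark only on replicate 3 of each genotype. The late averages and the late minus early value thus rest partly on values near background. Matn4-/- replicate 3 is also the array that stood apart from the others. The genotypes overlapped in the late minus early value and their means differed by -0.03, or by -0.01 with Epor among the early genes.

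Over both genotypes together, 19 of the 21 probes, of 8 genes, were among the brighter 50% and were tested. None passed an adjusted p of 0.05 in limma, where 0.0476% of all tested probes did (11 of 23118). At an unadjusted p under 0.05 stood 1 of the 19, that of Car1, against 5.45% of all tested probes. The groups did not overlap for 1 of the 19, again Car1, against 10.4% of all tested probes in either direction and 4.04% with Matn4-/- higher. By brightest probe 6 of the 8 genes other than Epor had a higher and 2 a lower mean log2 value in Matn4-/- cells, where 46.1% of all tested probes were higher. Their median difference was 0.06 where that of all tested probes was -0.01. For Alas2 and Slc4a1 these signs come from values mostly at the level of Y-linked probes.

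**Figure D3:**
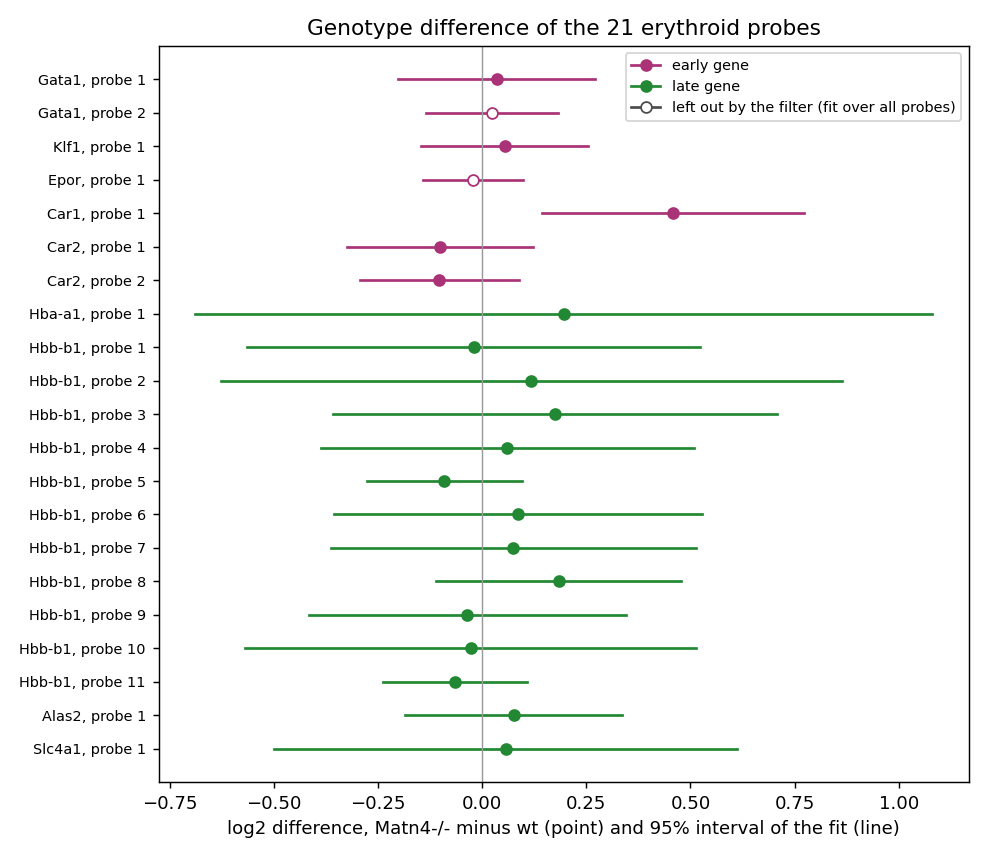
Log2 difference, Matn4-/- minus wt (horizontal axis), of the 21 erythroid probes (vertical axis, brightest probe of a gene first) with the 95% interval of the limma fit, early genes in purple and late genes in green, and open circles for both probes outside the tested set. The Car1 interval, 0.14 to 0.77, lies above 0 before adjustment, and every other interval crosses 0. The values of Epor, Alas2 and Slc4a1 lie under the Y-linked mark on all or most arrays.

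The genes whose pattern was most like that of Hba-a1, the most variable member above the mark on every array, were taken from 438 probes with at least 50% of its SD. Over the 6 arrays, Ccl4, a chemokine gene, had a Pearson r of 0.95 with it, Mpo, of neutrophil granules, 0.94 by one of its probes, Ahnak 0.90, Hdc, the histamine-forming enzyme of mast cells and basophils, 0.89 and Plekhm2 0.85. Among the members, r with Hba-a1 was 0.96 for Slc4a1, 0.85 for Alas2 and 0.82 for the brightest Hbb-b1 probe, against -0.54 to 0.34 for the 4 early genes other than Epor. Alas2 and Slc4a1 were above the mark only on replicate 3 of each genotype, so their r rests on those 2 arrays against values near background. These values describe the same 6 arrays, share their libraries and were picked from many probes. Ccl4 read 288, 295 and 448 in wt and 352, 259.9 and 445 in Matn4-/- cells. Its order over the arrays was that of Hba-a1 within Matn4-/- cells and within wt cells.

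Some markers of other blood cells were highest on the same arrays as the late genes, a pattern held by 7.73% of all tested probes. Of 10 measured mast cell and basophil markers, 2 exceeded the Y-linked mark on all arrays and 4 on none (Ms4a2, Tpsab1, Gzmb and Mcpt4). Their summed intensity was 1341 to 1730 in wt and 1429 to 2036 in Matn4-/- cells, and 4 of the 7 tested were highest on replicate 3 of both genotypes. All 7 had a higher mean log2 value in Matn4-/- cells, where 46.1% of all tested probes did. The count was 6 of 7 after quantile, cyclic loess or median scaling, and none passed (smallest adjusted p = 0.842). Relative to each probe's mean, the 7 averaged -0.20, -0.16 and 0.16 on wt replicates 1 to 3. On Matn4-/- replicates 1 to 3 they averaged -0.10, -0.06 and 0.36, the last on the array that stood apart. Mcpt8, a basophil protease gene, read 211, 191 and 432 in wt and 243, 285 and 538 in Matn4-/- cells, and Hdc read 178, 184 and 273 in wt and 182, 156 and 350.4 in Matn4-/- cells. Of 10 neutrophil granule markers, 3 exceeded the mark on all arrays and S100a8 and Lcn2 on none, with sums of 1642 to 2415 in wt and 1802 to 2483 in Matn4-/- cells, and 3 of the 7 tested were highest on replicate 3 of both genotypes. Prtn3, a granule protease gene, read 184 to 254. Mpo, the granule peroxidase, read 517, 621 and 857 in wt and 617, 534 and 1114 in Matn4-/- cells. These values come from a brighter probe than the Mpo probe compared with Hba-a1 above. Their part in the late erythroid values was not tested.

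The other lists were mixed, beside the 7.73% of all tested probes that were highest on replicate 3 of both genotypes. Of 10 megakaryocyte and platelet markers, 6 exceeded the mark on all arrays and Gp6 on none. On replicate 3 of both genotypes 0 of the 9 tested were highest. Sums over the 10 were 1932 to 2073 in wt and 1798 to 1929 in Matn4-/- cells and lay just apart. Of all tested probes, 10.4% had groups apart in either direction. Relative to each probe's mean, the 9 averaged 0.07, 0.03 and 0.01 on wt replicates 1 to 3. On Matn4-/- replicates 1 to 3 they averaged 0.01, -0.01 and -0.11, the last on the array that stood apart. In Matn4-/- cells 2 of these 9 were higher and 7 lower, where 46.1% of all tested probes were higher. None passed (smallest adjusted p = 0.938). Of the brightest, Pf4 read 267 to 375 and Gp5 281 to 375 over the 6 arrays. Of 12 genes of the sorted stem cell list, 9 exceeded the mark on all arrays, and 1 of the 10 tested was highest on replicate 3 of both genotypes. The 12 include Cd48, which the cells were sorted to lack and which exceeded the mark on no array. Sums over the list, Cd48 included, were 3393 to 3564 in wt and 3127 to 3533 in Matn4-/- cells. Gata2, a stem cell factor that GATA1 displaces in red cell formation, read 682 to 797. Markers of monocytes (8 measured, 6 of them on no array above the mark), B cells (5 measured, 2 on none) and T and NK cells (8 measured, 4 on none) were mostly dim, with 2 of 3, 2 of 3 and 0 of 4 tested genes highest on replicate 3 of both genotypes. The summed intensity was 1082 to 1128 in wt and 1066 to 1272 in Matn4-/- cells for monocytes and 663 to 684 and 642 to 701 for B cells. For T and NK cells it was 1261 to 1336 in wt and 1163 to 1234 in Matn4-/- cells and did not overlap. This sum includes the 4 genes above the mark on no array, and 10.4% of all tested probes had groups apart in either direction. All 4 tested T and NK genes were lower in Matn4-/- cells, 3 of 4 after cyclic loess scaling, where 46.1% of all tested probes were higher. Of them 2 (Cd8b1 and Lat) had an unadjusted limma p under 0.05, against 5.45% of all tested probes. None passed (smallest adjusted p = 0.790). The part of these lists in the erythroid values was not tested. The brightest were Lyz2 at 322 to 435 and Irf8 at 113 to 139, Cd79b at 140.1 to 175 and Vpreb1 at 133 to 163, and Cd8b1 at 278 to 342 and Nkg7 at 159 to 185. In RNA from a sorted population, a change in the number of cells of a type and a change in RNA per cell cannot be told apart.

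**Figure D4:**
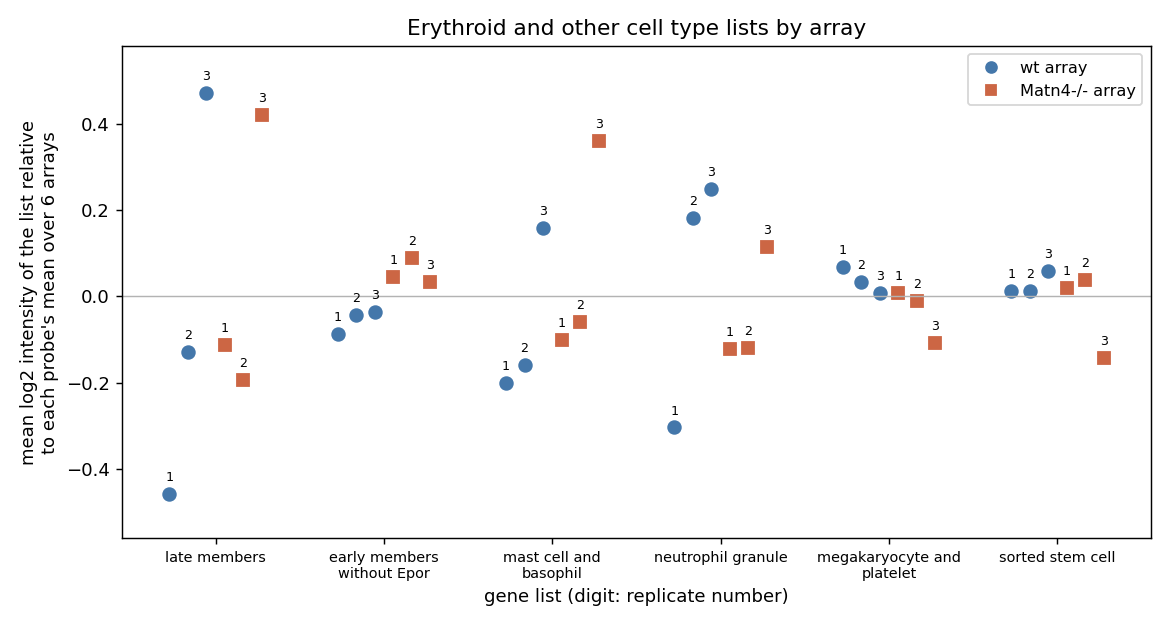
Mean log2 intensity of the tested genes of 6 lists (the late and early genes with the brightest probe of each) relative to each probe's mean over the 6 arrays (vertical axis), with Epor left out, for wt arrays (blue circles) and Matn4-/- arrays (orange squares), with the replicate number above each point. The late genes reach 0.47 and 0.42 on replicate 3 of wt and Matn4-/-, the mast cell and basophil list 0.16 and 0.36 and the neutrophil list 0.25 and 0.11, and the early genes stay between -0.09 and 0.09. Of the late genes, Alas2 and Slc4a1 were above the Y-linked mark only on replicate 3 of each genotype.

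The rest of the red cell programme was read from 7 further lists by role, with 61 genes tested. None passed, 30 were higher and 31 lower in Matn4-/- cells, and the median difference was -0.01, as over all tested probes. On replicate 3 of both genotypes 7 of the 61 (11.5%) were highest, against 7.73% of all tested probes. By list they were 2 of 12 erythroid factors, 3 of 10 signalling genes and 1 of 8 iron genes. The last was 1 of 4 further globin genes and chaperones. None of the 9 haem synthesis, 12 membrane and 7 other late genes tested had the pattern.

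Erythroid transcription factors split 6 higher to 6 lower of 12 tested (median 0.02). Lmo2, the bridging protein of the GATA1 complex, read 1428 ± 211 in wt and 1311 ± 56.3 in Matn4-/- cells. Zbtb7a, which encodes a repressor of fetal globin genes known from human red cells, had the smallest p of the 61 genes (log2 -0.52, unadjusted p = 0.027, adjusted p = 0.853) and read 1153, 731 and 623 in wt and 528, 535 and 624 in Matn4-/- cells. Of 10 tested genes of erythropoietin and Kit signalling, 6 were higher and 4 lower (median 0.02). Stat5a, a transcription factor downstream of EPOR, read 581 ± 26.6 and 651 ± 77.7, and Kit 520.1 ± 52.8 and 572 ± 98.4.

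Of 9 tested haem synthesis genes, 1 was higher and 8 were lower, where 46.1% of all tested probes were higher. The median was -0.07 and the smallest unadjusted limma p 0.306. Relative to each probe's mean, they averaged 0.05, -0.05 and 0.08 on wt replicates 1 to 3. On Matn4-/- replicates 1 to 3 they averaged 0.01, 0.05 and -0.14, so only replicate 3, the array that stood apart, lay below the wt range. Slc25a38, the mitochondrial glycine carrier that feeds ALAS2, read 401 ± 31.0 in wt and 384 ± 24.5 in Matn4-/- cells, and Urod, an enzyme of the middle of the pathway, 349 ± 59.8 and 331 ± 55.8. Of 8 iron genes, 5 were higher and 3 lower (median 0.05). Fth1, the ferritin heavy chain, read 1665 ± 52.1 and 1717 ± 203, and Tfrc, the transferrin receptor, 191 ± 2.60 and 204 ± 34.7.

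Of 4 tested further globin genes and chaperones, 1 was higher and 3 were lower (median -0.05). Hbb-b2, a further beta globin name, read 147, 154 and 208 in wt and 169.8, 152 and 171 in Matn4-/- cells and was also highest on replicate 3 of both genotypes. Prdx2, a peroxiredoxin abundant in red cells, read 583 ± 22.8 and 583 ± 10.3. The embryonic beta-like gene Hbb-y exceeded the Y-linked mark on no array. Of 12 red cell membrane genes, 8 were higher and 4 lower (median 0.04), and 0 of the 12 were highest on replicate 3 of both genotypes. Aqp1, the water channel, read 658 ± 129 and 627 ± 46.6, and Slc2a1, the glucose transporter, 239 ± 17.5 and 258 ± 42.1. Of 7 other late genes, 3 were higher and 4 lower (median -0.02), with Bnip3l, which removes mitochondria from maturing red cells, at 243 ± 32.7 and 238 ± 29.7 and Slc43a1, an amino acid transporter, at 192 ± 8.29 and 178 ± 20.9. Of the membrane genes, Epb42, Rhd, Kel and Dmtn exceeded the mark on no array.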

How the data were processed

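The values analysed are the deposited intensities of the series matrix, linear and 1 for each probe on each array. The sources used here do not say how the authors normalized them. Column medians of 118.0 to 120.4 show arrays at a similar level with the background kept. The non-normalized table was left out, because none of its 12 value columns is named like a sample.

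Members were matched by platform symbol. Of 46237 probes, 35784 had 1 symbol, none had several and 10453 had none. Values were transformed to log2 and fitted per probe in limma 3.58.1 (R 4.3.3, lmFit and eBayes, genotype as the only term) over the brighter 50% of probes by mean over 6 arrays, 23118 in all. Benjamini-Hochberg adjustment ran over these probes, with a threshold of 0.05. Probes outside were fitted with all probes. The fit was tested on simulated data. The members and lists were chosen with earlier results of these data known.

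Named were all members, Matn4, Kit, Slamf1 and Cd48, the 2 brightest tested genes of each list, and the 5 genes most like the most variable member. Zbtb7a and ILMN_1235372 are remarked on for values seen, Lat for its p, Hbb-y, Gp6 and other genes for lying below the mark. Promoter windows came from RefSeq (GRCm38.p6). The array's own build is unknown here. Tables were handled in pandas 2.3.3 (Python 3.11.15) and plots drawn in matplotlib 3.10.9.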

Additional observations from a re-analysis of the deposited data

How the results depend on the processing

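No member probe passed in any of 16 alternatives, 10 of scaling, background, filter or model and 6 with an array left out. The count over all tested probes, 11, was 7 with the brightest probe of each gene, 17 with a trended robust variance (the cause was not tested) and 3 to 9 with an array left out. With replicate number as a block it was 13, and that of members 0. Same-numbered arrays of both genotypes had correlations of their deviations of 0.01, 0.04 and 0.05 over the tested probes. Differently numbered arrays had -0.07 to 0.02. The values of replicates 2 and 3 lay above that range, and that of replicate 1 lay within it. All were small, and the numbers were not taken to pair arrays. The Car1 difference lay between 0.32 and 0.60 over all alternatives (lowest adjusted p = 0.491). With an array left out, Gata1 ran from -0.070 to 0.10, Klf1 from -0.023 to 0.11, Hba-a1 from -0.15 to 0.62, Hbb-b1 from -0.26 to 0.15, Alas2 from -0.0088 to 0.19 and Slc4a1 from -0.16 to 0.36, each changing sign with fewer arrays (the last 2 from values mostly at the level of Y-linked probes), whereas Car2 stayed below 0 (-0.17 to -0.02). No scaling changed a sign among the brightest probes. The late minus early difference ran from -0.21 to 0.24 with an array left out and was -0.03 without Epor, an alternative added after seeing the data. The pattern on replicate 3, an alternative added after seeing the data, held for 4 late genes and none of the early genes under all 5 scalings or backgrounds tried, and for 9 to 11 Hbb-b1 probes. The kept background limits dim members.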

Other observations

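Some erythroid genes of the fixed lists stood out on a single array. They were picked after their values had been seen. Icam4, a red cell adhesion molecule, read 614 on Matn4-/- replicate 3, the array that stood apart from the others, and 153 to 198 on the other 5 (log2 0.59, adjusted p = 0.998). Slc25a37, the mitochondrial iron importer mitoferrin, read 307 on wt replicate 2 and 125 to 158 on the others. Xk, a red cell membrane transporter-like gene, read 228 on Matn4-/- replicate 3 and 120.2 to 154 on the others. Each stood on one array, where Hba-a1 and Hbb-b1 were high on an array of each genotype.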
